A study of Arabidopsis thaliana with 6 samples.

Results

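Transcripts of cytosolic and associated glycolysis genes were examined in Arabidopsis thaliana callus. The set held 38 listed loci of the 31305 in the deposited expression table. They were chosen by locus code and run from UDP-glucose pyrophosphorylase and hexokinase to pyruvate kinase, with the phosphoenolpyruvate carboxylase genes beside it. Most encode cytosolic enzymes, and PFK4, PFK5 and ENO1 encode plastid isoforms. All 38 were found in the table. Of these, 35 averaged 1 TPM or more (transcript abundance corrected for transcript length and scaled to a common library total) and entered the test, and 3 did not.

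Callus is the mass of dividing cells that grows from cut plant organs when auxin and cytokinin are supplied. The explants were hypocotyls cut from 1-week-old seedlings and kept for 7 days on callus-inducing medium, and the transcriptome of whole callus was sequenced in bulk. Of the 6 libraries, 3 came from callus labelled rap2.12-2, a line named after an allele of the transcription factor gene RAP2.12, and 3 from the wild type Col-0. Both genotypes had the same explant, medium and time, and the replicates are described as biological by the submitters. The labels do not give the nature of the allele, a second allele or a rescued line.

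Glycolysis splits hexose phosphates into triose phosphates and oxidises them to pyruvate, yielding ATP and NADH, and in plants it runs in the cytosol and, in part, again in plastids. Fructose 6-phosphate is phosphorylated in plant cytosol by ATP-dependent phosphofructokinase (PFK), which is irreversible, and by the reversible, pyrophosphate-dependent enzyme PFP, built of alpha and beta subunits. Phosphoenolpyruvate leaves the pathway through pyruvate kinase or through phosphoenolpyruvate carboxylase, which feeds the citric acid cycle with oxaloacetate. RAP2.12 belongs to the group VII ethylene response factors, which are unstable in the presence of oxygen and activate genes of low-oxygen metabolism, among them genes of sucrose cleavage and ethanolic fermentation.

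RAP2.12 transcript (AT1G53910) stood at 359.6, 362.9 and 464.6 TPM in libraries labelled rap2.12-2, against 122.6, 140.0 and 160.8 TPM in Col-0. The groups did not overlap (log2 fold change 1.48, SE 0.17, limma adjusted p = 0.026). On leaving out single libraries the log2 fold change stayed between 1.36 and 1.58, while the call was lost without replicate 2 (limma adjusted p = 0.068) or 3 (0.058) of the rap2.12-2 label and without Col-0 replicate 1 (0.17) or 3 (0.19). It was also lost with no filter on low values (0.062), no variance trend (0.077), a block for the replicate number (0.062) and without both replicates 1 (0.22). The transcript was higher under the mutant label, so directions given here are those of the labels and say nothing on their own of a loss of RAP2.12. The listed TPM summed to 845341 in Col-0 replicate 1, which held 12005 TPM of organelle transcripts, and to between 984523 and 992724 in the other libraries, with 157 to 537 TPM of organelle transcripts. Nuclear genes thus share a smaller total in Col-0 replicate 1. The library labelled rap2.12-2 replicate 1 was the lowest of 6 for 43.0% of the tested genes. TPM keeps no sequencing depth, so the precision of each value is judged from the spread between libraries. The root stem cell regulators that mark callus were present, with PLT1 at 85.0 to 130.9 TPM in libraries labelled rap2.12-2 and 96.3 to 116.6 TPM in Col-0, and LBD29, another callus factor, was at most 0.58 TPM. Leaf photosynthesis markers were not uniformly low. RBCS1A was at most 2.71 TPM and PRK at most 0.34 TPM, while LHCA3 reached 6.66 TPM and LHCA1 9.0 TPM. CAB1 reached 21.54 TPM in libraries labelled rap2.12-2 and 23.48 TPM in Col-0, a level overlapping that of the callus marker LBD16 (at most 21.87 TPM). The shoot meristem factor WUS was at most 0.14 TPM.

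Among the listed genes PFK3, a PFK gene, had the largest difference. The start regions of PFK6, whose groups did not overlap, and of PFK7, the most abundant PFK gene, are given to show where a low-oxygen element lies. Each covers 250 bases before and 50 bases after the annotated start of the gene, read 5′ to 3′ from the TAIR10.1 reference genome. The regions are chr4:15848503-15848802 on the minus strand for PFK6 and chr5:22923554-22923853 on the plus strand for PFK7. Capitals mark the match to that element, which begins with AAACCA.
PFK6: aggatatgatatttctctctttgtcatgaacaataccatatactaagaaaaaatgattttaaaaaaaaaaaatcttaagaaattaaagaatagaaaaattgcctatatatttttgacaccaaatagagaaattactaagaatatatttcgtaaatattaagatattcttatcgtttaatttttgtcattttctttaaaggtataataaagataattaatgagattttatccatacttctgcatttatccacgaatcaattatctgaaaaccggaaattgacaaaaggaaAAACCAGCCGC
PFK7: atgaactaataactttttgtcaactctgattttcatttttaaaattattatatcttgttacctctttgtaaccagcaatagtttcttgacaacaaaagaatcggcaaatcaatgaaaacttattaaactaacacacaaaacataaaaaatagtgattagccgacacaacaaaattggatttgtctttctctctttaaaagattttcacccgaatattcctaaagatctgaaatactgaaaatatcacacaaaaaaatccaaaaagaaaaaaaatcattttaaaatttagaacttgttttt

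AAACCA is the first part of the hypoxia-responsive promoter element, the sequence through which group VII ethylene response factors are known to act on low-oxygen genes in Arabidopsis. PFK6 held AAACCA at position 40 on its own strand, counted from the annotated start of the gene, inside a match to the whole element, and PFK7 held none. On either strand, AAACCA lay in 32.0% of the 27443 protein-coding start regions of this length and in 13 of the 38 listed genes (34.2%). The whole element lay in 18 start regions (0.1%), and of the listed genes only PFK6 held it. ATCTA, an element bound by the related factor RAP2.2, lay in 54.0% of all start regions and in 14 listed genes (36.8%), and GCCGCC, the core of the GCC box that many ethylene response factors bind, in 2.6% and in 1 listed gene, the plastid enolase gene ENO1. The G-box CACGTG lay in 7.7% of all start regions and in 3 listed genes (7.9%). These matches describe letters in these windows and do not show binding.

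Several steps are encoded by close copies, so the longest identical coding stretches of the 3 pairs that share more than 50 bases are given, because a read that falls wholly inside such a stretch cannot be assigned to 1 gene. PFK3 and PFK7 share 51 bases (coding positions 112 to 162 in both) and are 84.2% identical over aligned coding bases. GAPC1 and GAPC2 share 53 bases (211 to 263) at 89.9% identity. The pyruvate kinase genes AT3G52990 and AT2G36580 share 56 bases (994 to 1049) at 88.8% identity.
PFK3 and PFK7: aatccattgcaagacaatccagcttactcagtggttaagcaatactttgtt
GAPC1 and GAPC2: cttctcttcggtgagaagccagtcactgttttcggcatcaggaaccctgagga
AT3G52990 and AT2G36580: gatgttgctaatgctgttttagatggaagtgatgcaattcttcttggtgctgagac
Windows of 50 bases that recur in another annotated locus made up 0.1% of the PFK3 transcript and 0.2% of those of GAPC1 and GAPC2. In 12 of the 38 genes the annotation overlaps another gene, and the use of strand in counting is not given in the sources used here, so reads from the shared bases could belong to either. PFK3 overlaps none.

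No listed gene passed limma's test at an adjusted p under 0.05 over 18629 genes, where 0.0698% of all genes passed (0.0429% higher, 0.0268% lower). With the p left unadjusted and under 0.05, 0 of the 35 were higher and 1, PFK3, was lower, while 6.84% of all genes reached that level (3.22% higher and 3.62% lower). The libraries of the groups did not overlap for 4 of the 35: PFK3 and PFK6 were lower, and iPGAM1 and iPGAM2 higher, in every library labelled rap2.12-2 than in every Col-0 library. This is 11.4% of the tested members against 12.7% of all tested genes (6.62% higher and 6.03% lower), a share near the background. Log2 fold changes of TPM + 1, libraries labelled rap2.12-2 over Col-0, were positive for 17 and negative for 18 genes (51.4%, against 53.3% of all genes), with a median of -0.00 against -0.02 over all genes. Apart from PFK3 they lay between -0.32 and 0.30. The 95% intervals, not adjusted for the number of genes, reached 0.32 to 0.71 to either side of the estimate, so smaller differences in single genes were not detectable here. Larger ones could also miss the adjusted threshold, as PFK3 did (log2 fold change -1.12, limma adjusted p = 0.40). In bulk callus, fewer cells of a type and less RNA per cell cannot be told apart.

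**Figure D1:**
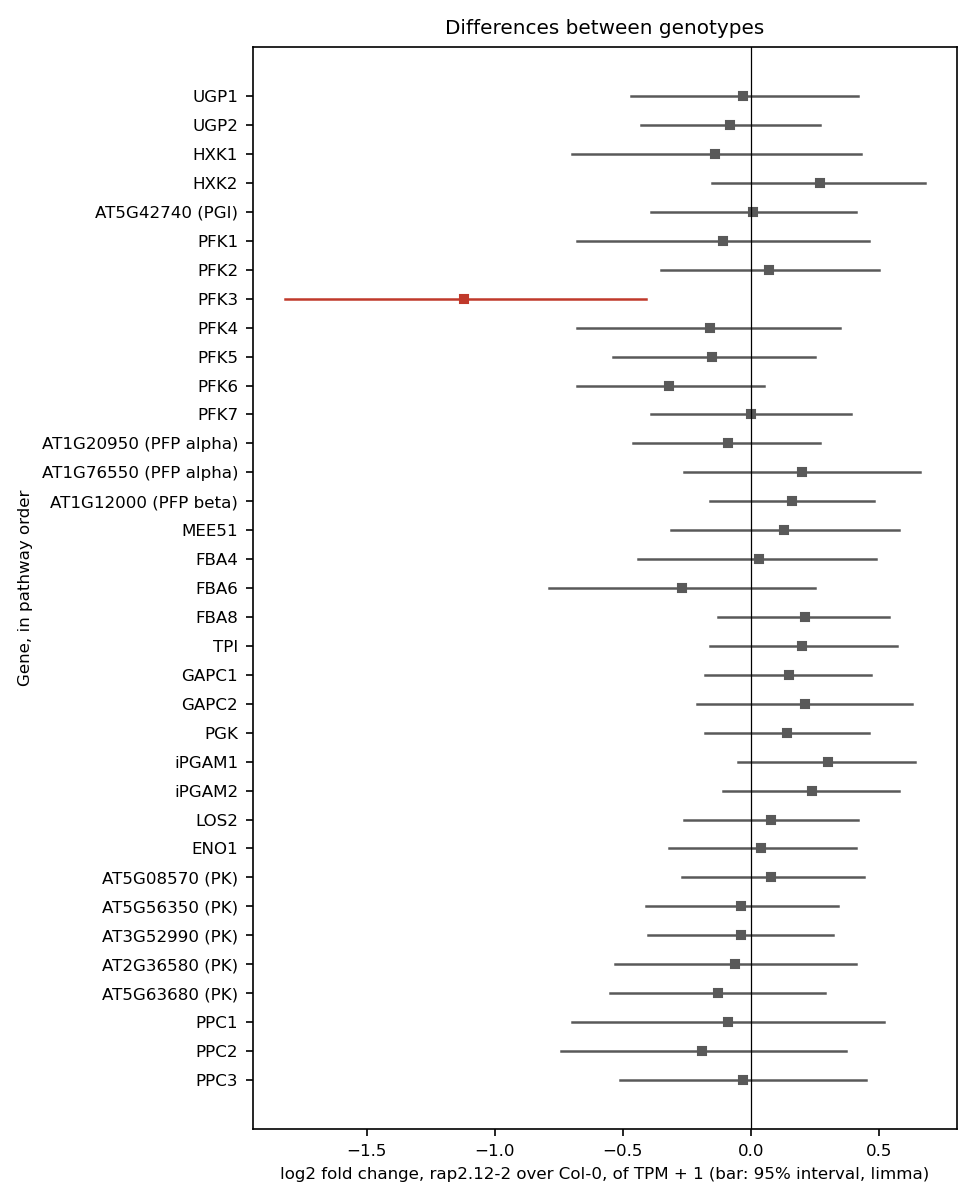
Log2 fold change of TPM + 1 (horizontal axis) for the 35 listed genes that averaged 1 TPM or more, in pathway order from top to bottom, libraries labelled rap2.12-2 over Col-0 (n = 3 each). Squares are limma estimates and bars 95% intervals; the PFK3 interval, -1.82 to -0.41 and drawn in red, is the only 1 that does not reach 0.

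Levels along the pathway differed far more than levels between genotypes. Summed over the listed genes of a step and averaged over all 6 libraries, phosphorylating GAPDH stood highest at 3051 TPM. Enolase (759.1), aldolase (676.4), triose-phosphate isomerase (538.1), pyruvate kinase (478.2), phosphoglycerate kinase (368.6) and phosphoglycerate mutase (348.3 TPM) followed. The carboxylase PPC (224.9), the ATP-dependent PFK (213.8) and the PFP beta subunit (206.3 TPM) were close together. UDP-glucose pyrophosphorylase (130.8), the PFP alpha subunit (115.6), hexokinase (69.4) and glucose-6-phosphate isomerase (46.0 TPM) closed the order, with non-phosphorylating GAPDH close to 0. This order holds for the listed genes only. The PFK and enolase sums include plastid isoforms, whereas plastid PGI1 and FBA3 are outside the isomerase and aldolase sums. PGI1 averaged 88.8 TPM in libraries labelled rap2.12-2 and 90.1 TPM in Col-0, and FBA3 485.1 and 499.7 TPM. The ranges over libraries were separate from that of the next lower step for GAPDH, phosphoglycerate mutase, PFP beta, PFP alpha and glucose-6-phosphate isomerase, and overlapped for the other neighbours. Some overlapping neighbours still kept their order within each library: enolase exceeded aldolase, and aldolase exceeded triose-phosphate isomerase, in 6 of 6 libraries, whereas PPC exceeded ATP-dependent PFK in 3 of 6. The listed genes together held 7616, 7135 and 7909 TPM in libraries labelled rap2.12-2, and 6001, 7073 and 7626 TPM in Col-0. As shares of what each library lists, these were 0.77%, 0.72% and 0.80% in libraries labelled rap2.12-2 and 0.71%, 0.71% and 0.77% in Col-0.

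**Figure D2:**
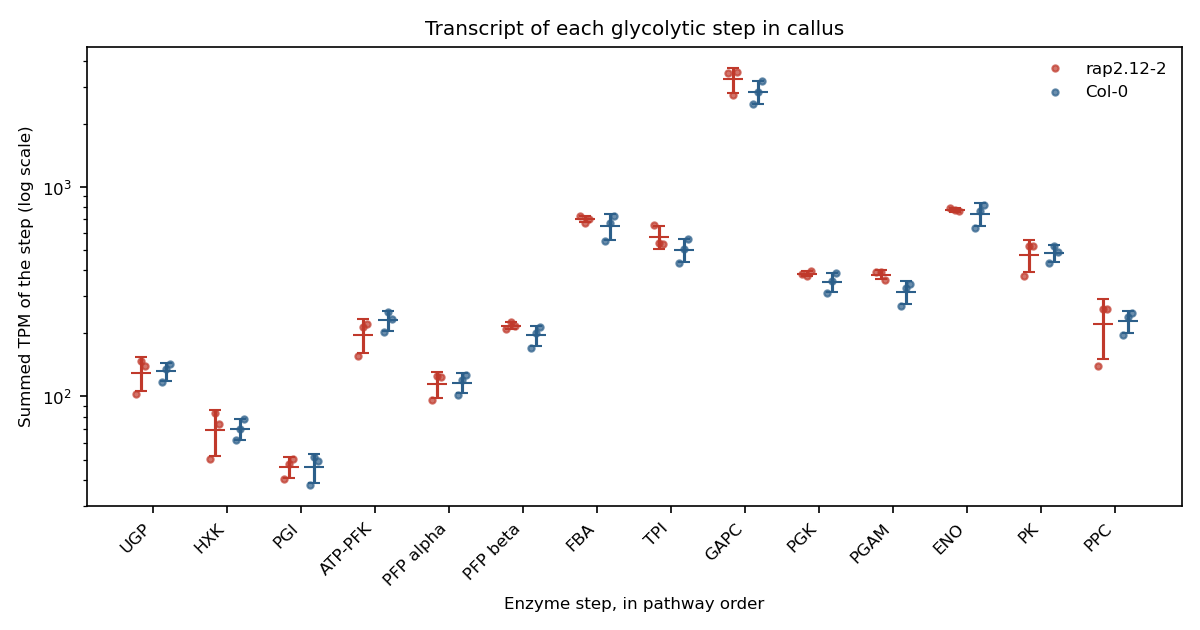
Summed TPM of the listed genes of each enzyme step (logarithmic vertical axis) in pathway order, with 1 point per library, the mean as a long bar and the SD as whiskers (n = 3 each); libraries labelled rap2.12-2 are left and red, Col-0 right and blue. GAPDH averages 3260 TPM under the rap2.12-2 label and 2842 TPM in Col-0, and phosphoglycerate mutase, at 381.4 TPM under the rap2.12-2 label and 315.3 TPM in Col-0, is the step whose libraries do not overlap.

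At the entry of the pathway the groups overlapped in every total. UDP-glucose pyrophosphorylase, which interconverts UDP-glucose and glucose 1-phosphate at the expense of pyrophosphate, summed to 129.9 ± 23.8 TPM in libraries labelled rap2.12-2 and 131.7 ± 13.2 TPM in Col-0 (SD, n = 3 each). UGP1 was the main gene, with 80.0, 125.1 and 115.4 TPM in libraries labelled rap2.12-2 and 93.4, 112.4 and 116.1 TPM in Col-0. It made up 77.8% to 84.9% of the step in libraries labelled rap2.12-2 and 79.9% to 82.7% in Col-0. UGP2 lay between 22.2 and 24.2 TPM, against 23.4 to 26.3 TPM in Col-0. The groups overlapped for both genes.

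Hexokinase phosphorylates glucose, and HXK1 is also a glucose sensor. HXK1 stood at 34.2, 66.6 and 61.0 TPM in libraries labelled rap2.12-2 and at 50.4, 57.8 and 64.0 TPM in Col-0 (log2 fold change -0.14, 95% interval -0.70 to 0.43). The low value was that of replicate 1 of the rap2.12-2 label, and the remaining libraries overlapped. HXK2, another hexokinase of the mitochondrial surface, measured 15.9, 16.7 and 12.9 TPM in libraries labelled rap2.12-2 and 11.6, 11.9 and 13.8 TPM in Col-0, with 0.27 as its log2 fold change (-0.15 to 0.68, limma adjusted p = 0.85). HXK1 held 68.3%, 79.9% and 82.5% of the step in libraries labelled rap2.12-2, against 81.4%, 83.0% and 82.3% in Col-0. Cytosolic glucose-6-phosphate isomerase (AT5G42740), which turns glucose 6-phosphate into fructose 6-phosphate, averaged 46.1 ± 5.28 TPM in libraries labelled rap2.12-2 and 46.0 ± 7.23 TPM in Col-0 (SD, n = 3 each). Its log2 fold change was 0.01 (95% interval -0.39 to 0.41).

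PFK3 had the largest difference of the 35 genes. PFK3 (AT4G26270, chromosome 4, 13300778 to 13304440, minus strand, TAIR10.1), which encodes a cytosolic ATP-dependent phosphofructokinase, measured 10.7, 21.9 and 25.3 TPM in libraries labelled rap2.12-2 and 34.2, 52.9 and 37.2 TPM in Col-0. All 3 libraries of the rap2.12-2 label lay below all 3 of Col-0, the nearest values being 25.3 and 34.2 TPM. The means were 19.3 ± 7.63 TPM in libraries labelled rap2.12-2 and 41.4 ± 10.04 TPM in Col-0 (SD, n = 3 each), a ratio of 0.466. On the log2 scale the difference was -1.12 (SE 0.31, 95% interval -1.82 to -0.41), with an unadjusted p of 0.006 and a limma adjusted p of 0.40. In an exact permutation test (two-sided) on TPM, p was 0.10, which is the lowest value that groups of 3 and 3 can reach. Any gene whose groups do not overlap takes this value, as PFK6, iPGAM1 and iPGAM2 also did, so it adds nothing to the lack of overlap. Leaving out the lowest library, replicate 1 of the rap2.12-2 label, gave a log2 difference of -0.76 (limma adjusted p = 0.35), and leaving out the highest, Col-0 replicate 2, gave -0.93 (0.56). Without both replicates 1 it was -0.89 (limma adjusted p = 0.62).

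PFK6 was the other PFK gene whose groups did not overlap. PFK6 (AT4G32840, chromosome 4, 15844576 to 15848552, minus strand), also a cytosolic isoform, measured 18.0, 20.6 and 21.9 TPM in libraries labelled rap2.12-2 and 24.2, 24.4 and 27.5 TPM in Col-0. The nearest values, 21.9 and 24.2 TPM, lay closer together than the lowest and highest library within either group. The log2 fold change was -0.32 (SE 0.16, 95% interval -0.68 to 0.05, limma adjusted p = 0.80). Over 290 bases PFK6 overlaps AUR1, the gene of an Aurora kinase of cell division on the opposite strand, which averaged 54.2 TPM in libraries labelled rap2.12-2 and 52.7 TPM in Col-0 (log2 fold change 0.06).

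The remaining PFK genes overlapped between groups. PFK7 (AT5G56630, chromosome 5, 22923804 to 22926963, plus strand), the main gene of the step, stood at 50.3, 63.5 and 65.3 TPM in libraries labelled rap2.12-2 and 51.0, 63.9 and 64.1 TPM in Col-0. Its group means were equal at 59.7 TPM (log2 fold change -0.00, 95% interval -0.39 to 0.39), and it is the PFK gene closest to PFK3 in coding sequence. PFK5, a plastid isoform, measured 32.7, 46.8 and 41.1 TPM in libraries labelled rap2.12-2 and 40.5, 46.4 and 45.6 TPM in Col-0 (-0.15). PFK4, the other plastid isoform, measured 17.04, 27.8 and 25.1 TPM in libraries labelled rap2.12-2 and 21.1, 31.3 and 25.7 TPM in Col-0 (-0.16). For PFK1 the values were 8.48, 14.9 and 16.5 TPM in libraries labelled rap2.12-2 and 12.8, 15.8 and 13.2 TPM in Col-0 (-0.11). For PFK2 they were 18.6, 18.5 and 26.4 TPM in libraries labelled rap2.12-2 and 19.2, 18.9 and 21.3 TPM in Col-0 (0.07). Replicate 1 of the rap2.12-2 label was the lowest of the 6 libraries for every PFK gene except PFK2.

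The composition of PFK transcript differed accordingly. PFK3 made up 6.9%, 10.2% and 11.4% of the summed PFK transcript in libraries labelled rap2.12-2, against 16.9%, 20.9% and 15.9% in Col-0. PFK7 held 32.3%, 29.7% and 29.5% in libraries labelled rap2.12-2, against 25.1%, 25.2% and 27.3% in Col-0. The shares of PFK3 and PFK7 did not overlap between groups, and since shares add up to a whole, a lower share of PFK3 raises the sum of the others. The shares of the remaining PFK genes overlapped, and that of PFK6 averaged 10.4% in libraries labelled rap2.12-2 and 11.1% in Col-0. The ratio of PFK3 to PFK7 within a library, which does not depend on library scaling, was 0.213, 0.345 and 0.388 in libraries labelled rap2.12-2 and 0.671, 0.828 and 0.580 in Col-0. The whole step summed to 156, 214 and 222 TPM in libraries labelled rap2.12-2 and 203, 254 and 235 TPM in Col-0, so its groups overlapped. Without PFK3 the sums averaged 177.8 ± 28.4 TPM in libraries labelled rap2.12-2 and 189.0 ± 17.5 TPM in Col-0 (SD, n = 3 each). The ratios given here, among 8 computed, were chosen after the values were seen, and none was tested. Groups overlapped for the ratios of GAPC2 to GAPC1, of ATP-dependent PFK to summed GAPC, and of pyruvate kinase to PPC. No background over all genes was computed for shares or ratios, so how often such quantities lack overlap is not known.

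**Figure D3:**
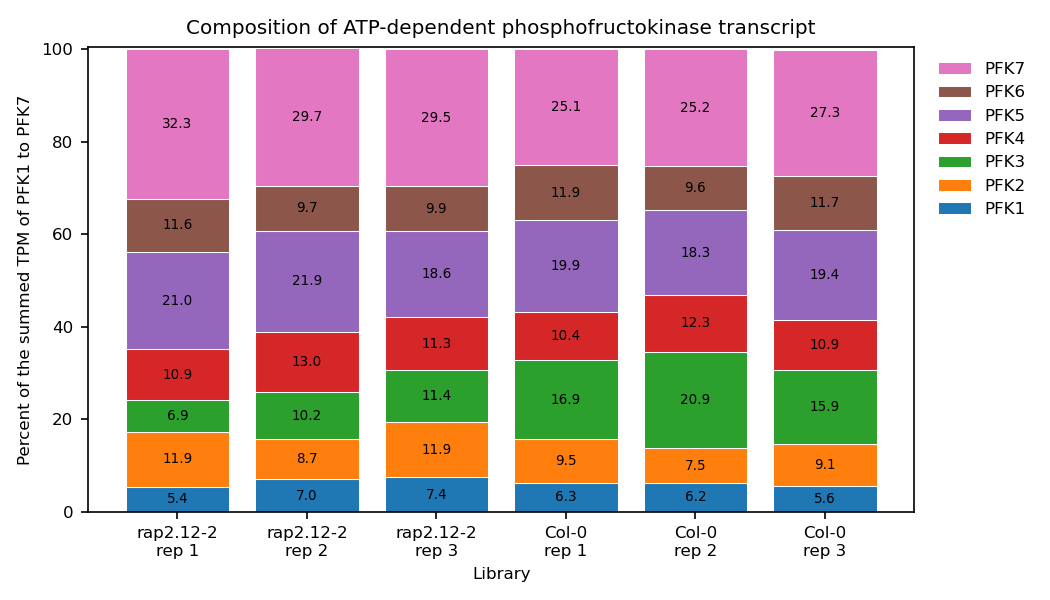
Percent of the summed TPM of PFK1 to PFK7 (vertical axis) held by each gene in each of the 6 libraries, libraries labelled rap2.12-2 left and Col-0 right. The green PFK3 segment is 6.9% to 11.4% in libraries labelled rap2.12-2 and 15.9% to 20.9% in Col-0.

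For each of the 4 PFP genes the groups overlapped. The main beta subunit gene, AT1G12000, which encodes the catalytic subunit, measured 193.2, 204.6 and 196.2 TPM in libraries labelled rap2.12-2 and 156.8, 182.9 and 194.0 TPM in Col-0 (log2 fold change 0.16, 95% interval -0.16 to 0.48). The groups touched at 193.2 and 194.0 TPM. MEE51, the other beta subunit gene, lay between 16.1 and 21.4 TPM in libraries labelled rap2.12-2 and between 14.3 and 20.4 TPM in Col-0 (0.13). Of the regulatory alpha subunit genes, AT1G20950 measured 70.7, 92.3 and 88.7 TPM in libraries labelled rap2.12-2 and 80.9, 89.1 and 97.9 TPM in Col-0 (-0.09). AT1G76550 measured 25.2, 32.8 and 35.04 TPM in libraries labelled rap2.12-2 and 21.0, 30.7 and 29.1 TPM in Col-0 (0.20). AT1G20950 held 73.7%, 73.8% and 71.7% of alpha subunit transcript in libraries labelled rap2.12-2, against 79.4%, 74.4% and 77.1% in Col-0, and these shares did not overlap. The beta to alpha ratio was 2.18, 1.81 and 1.75 in libraries labelled rap2.12-2 and 1.68, 1.67 and 1.69 in Col-0. Summed PFP over summed ATP-dependent PFK was 1.96, 1.64 and 1.53 in libraries labelled rap2.12-2, against 1.34, 1.26 and 1.46 in Col-0. These groups did not overlap either. The PFK sum includes PFK3 and the plastid isoforms PFK4 and PFK5. With PFK3 left out, the inverse ratio, PFK over PFP, was 0.4755, 0.547 and 0.5774 in libraries labelled rap2.12-2. In Col-0 it was 0.6185, 0.6271 and 0.5778, so the groups then nearly touched.

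From aldolase to enolase most values were positive, with no gene past the test. Of the 12 listed genes of these steps, 11 were tested, and their log2 fold changes were positive in 10 and negative in 1 (median 0.15). The split into upper, lower and final steps was made after the values were seen. Over all genes the median was -0.02. Col-0 replicate 1 was the lowest of 6 libraries for 14 of the 35 listed genes (40.0%, against 34.6% of all tested genes). Without that library 7 of the 11 were positive and 4 negative (median 0.08, where the median over all genes was -0.10). With quantile scaling, which gives all libraries the same distribution, 6 were positive and 5 negative (0.01, against 0.01 over all genes). After rescaling each library to its nuclear protein-coding genes 7 were positive and 4 negative (0.06, against -0.10 over all genes). In the upper steps, from UDP-glucose pyrophosphorylase to PFP, 6 genes were positive and 10 negative (median -0.05). Without the library labelled rap2.12-2 replicate 1, 12 of these were positive and 4 negative, and of the 11 lower genes 10 and 1. Both medians were then 0.14, where the median over all genes was 0.06.

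Fructose-bisphosphate aldolase cleaves the hexose into triose phosphates, and FBA8 was its main gene. FBA8 measured 604, 586 and 550.4 TPM in libraries labelled rap2.12-2 and 431, 529 and 558 TPM in Col-0 (log2 fold change 0.21, 95% interval -0.13 to 0.54). FBA6 was the gene of these steps with a negative value (-0.27, -0.79 to 0.25), at 113.4, 80.0 and 143.0 TPM in libraries labelled rap2.12-2 and 108.2, 137.7 and 152.9 TPM in Col-0. The low FBA6 value was that of the library labelled rap2.12-2 replicate 2, in which FBA6 held 11.8% of the step. FBA4 averaged 10.95 ± 1.19 TPM in libraries labelled rap2.12-2 and 10.8 ± 2.25 TPM in Col-0 (SD, n = 3 each), and FBA5 was at most 0.07 TPM and was not tested. Cytosolic triose-phosphate isomerase (TPI), which equilibrates the triose phosphates, stood at 659, 537 and 531 TPM in libraries labelled rap2.12-2 and 434, 505 and 562 TPM in Col-0 (0.20, -0.16 to 0.57).

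Cytosolic GAPDH oxidises glyceraldehyde 3-phosphate and reduces NAD, and its genes were the most abundant of the set. GAPC2 measured 2671, 1979 and 2715 TPM in libraries labelled rap2.12-2 and 1808, 2149 and 2380 TPM in Col-0 (log2 fold change 0.21, 95% interval -0.21 to 0.63). GAPC1 averaged 804.6 ± 25.6 TPM in libraries labelled rap2.12-2 and 729.9 ± 82.0 TPM in Col-0 (SD, n = 3 each; 0.15, -0.18 to 0.47). GAPC2 held 71.8% to 76.7% of the pair in libraries labelled rap2.12-2 and 73.1% to 75.4% in Col-0. ALDH11A3, the non-phosphorylating GAPDH that makes NADPH and bypasses phosphoglycerate kinase, was listed at 0.16 TPM in the library labelled rap2.12-2 replicate 1 and at 0 in the others. Phosphoglycerate kinase (AT1G79550), the first ATP-forming enzyme of the pathway, stood at 384, 377 and 397 TPM in libraries labelled rap2.12-2 and 312.5, 354 and 387 TPM in Col-0 (0.14, -0.18 to 0.46). Groups overlapped for each of these genes.

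Phosphoglycerate mutase, which moves the phosphate from carbon 3 to carbon 2 before enolase acts, was the step at which both genes had groups that did not overlap. iPGAM1 (AT1G09780, chromosome 1, 3165370 to 3167924, minus strand) measured 280.8, 278.7 and 240.1 TPM in libraries labelled rap2.12-2 and 187.8, 226.0 and 238.8 TPM in Col-0. The nearest values, 240.1 and 238.8 TPM, differed by much less than the libraries within either group. The log2 fold change was 0.30 (SE 0.15, 95% interval -0.05 to 0.64, limma adjusted p = 0.80). iPGAM2 (AT3G08590, chromosome 3, 2608308 to 2611555, minus strand) measured 111.6, 112.9 and 120.2 TPM in libraries labelled rap2.12-2 and 82.3, 105.0 and 106.1 TPM in Col-0 (log2 fold change 0.24, -0.11 to 0.58, limma adjusted p = 0.85). In both genes Col-0 replicate 1 was the lowest library, and without it the log2 fold changes were 0.19 for iPGAM1 and 0.12 for iPGAM2. The sum of the step was 392.3, 391.6 and 360.2 TPM in libraries labelled rap2.12-2, against 270.0, 331 and 345 TPM in Col-0. iPGAM1 overlaps CDC5 by 247 bases, a cell division and splicing factor gene on the opposite strand, which averaged 145.5 TPM in libraries labelled rap2.12-2 and 167.2 TPM in Col-0 (log2 fold change -0.24).

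Enolase makes phosphoenolpyruvate. LOS2, the cytosolic enolase gene, held 85.2% to 89.3% of the listed enolase transcript in libraries labelled rap2.12-2 and 86.3% to 87.3% in Col-0. Its level was 711, 658 and 660.1 TPM in libraries labelled rap2.12-2 and 549.8, 666 and 716 TPM in Col-0 (log2 fold change 0.08, 95% interval -0.26 to 0.42). The plastid enolase gene ENO1 averaged 100.7 ± 14.9 TPM in libraries labelled rap2.12-2 and 97.2 ± 8.54 TPM in Col-0 (SD, n = 3 each; 0.04).

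Pyruvate kinase, which makes pyruvate and ATP, had no dominant gene. Summed over its 6 listed genes it averaged 474.0 ± 83.5 TPM in libraries labelled rap2.12-2 and 482.4 ± 45 TPM in Col-0 (SD, n = 3 each). AT2G36580 led with 92.7, 145.8 and 152.4 TPM in libraries labelled rap2.12-2 and 118.7, 144.6 and 136.5 TPM in Col-0 (log2 fold change -0.06, 95% interval -0.53 to 0.41). AT3G52990 measured 88.2, 115.9 and 110.3 TPM in libraries labelled rap2.12-2 and 96.6, 113.1 and 112.1 TPM in Col-0 (-0.04). AT5G63680 measured 67.5, 92.4 and 100.1 TPM in libraries labelled rap2.12-2 and 82.9, 103.9 and 94.7 TPM in Col-0 (-0.13). AT5G08570 (0.08) and AT5G56350 (-0.04) averaged 92.2 and 60.0 TPM in libraries labelled rap2.12-2, against 86.8 and 61.3 TPM in Col-0. AT4G26390 was listed at 0 in all 6 libraries. The lowest sum was that of replicate 1 of the rap2.12-2 label, at 378 TPM, where its other replicates had 521 and 524 TPM. The share held by AT5G08570 was 20.9%, 19.1% and 18.9% in libraries labelled rap2.12-2 and 18.1%, 17.7% and 18.2% in Col-0, without overlap.

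Phosphoenolpyruvate carboxylase summed to 139.3, 262.5 and 262.4 TPM in libraries labelled rap2.12-2 and 196.3, 238.4 and 250.2 TPM in Col-0. PPC1, the main gene, stood at 88.3, 177.5 and 176.7 TPM in libraries labelled rap2.12-2 and 126.8, 161.8 and 162.9 TPM in Col-0 (log2 fold change -0.09, 95% interval -0.70 to 0.52). Replicate 1 of the rap2.12-2 label lay far below its other replicates, and Col-0 replicate 1 was the lowest of its own group. PPC1 (chromosome 1, 19883935 to 19888413, minus strand) lies 246.4 kb from RAP2.12, the nearest of the listed genes. PPC2 measured 22.2, 40.5 and 38.2 TPM in libraries labelled rap2.12-2 and 31.0, 39.7 and 41.7 TPM in Col-0 (-0.19). PPC3 measured 28.8, 44.5 and 47.5 TPM in libraries labelled rap2.12-2 and 38.6, 36.8 and 45.6 TPM in Col-0 (-0.03). Of the 8 tested pyruvate kinase and PPC genes the log2 fold change was positive in 1 and negative in 7 (median -0.05). When replicate 1 of the rap2.12-2 label was left out, all 8 were positive (median 0.12, where the median over all genes was 0.06).

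**Figure D4:**
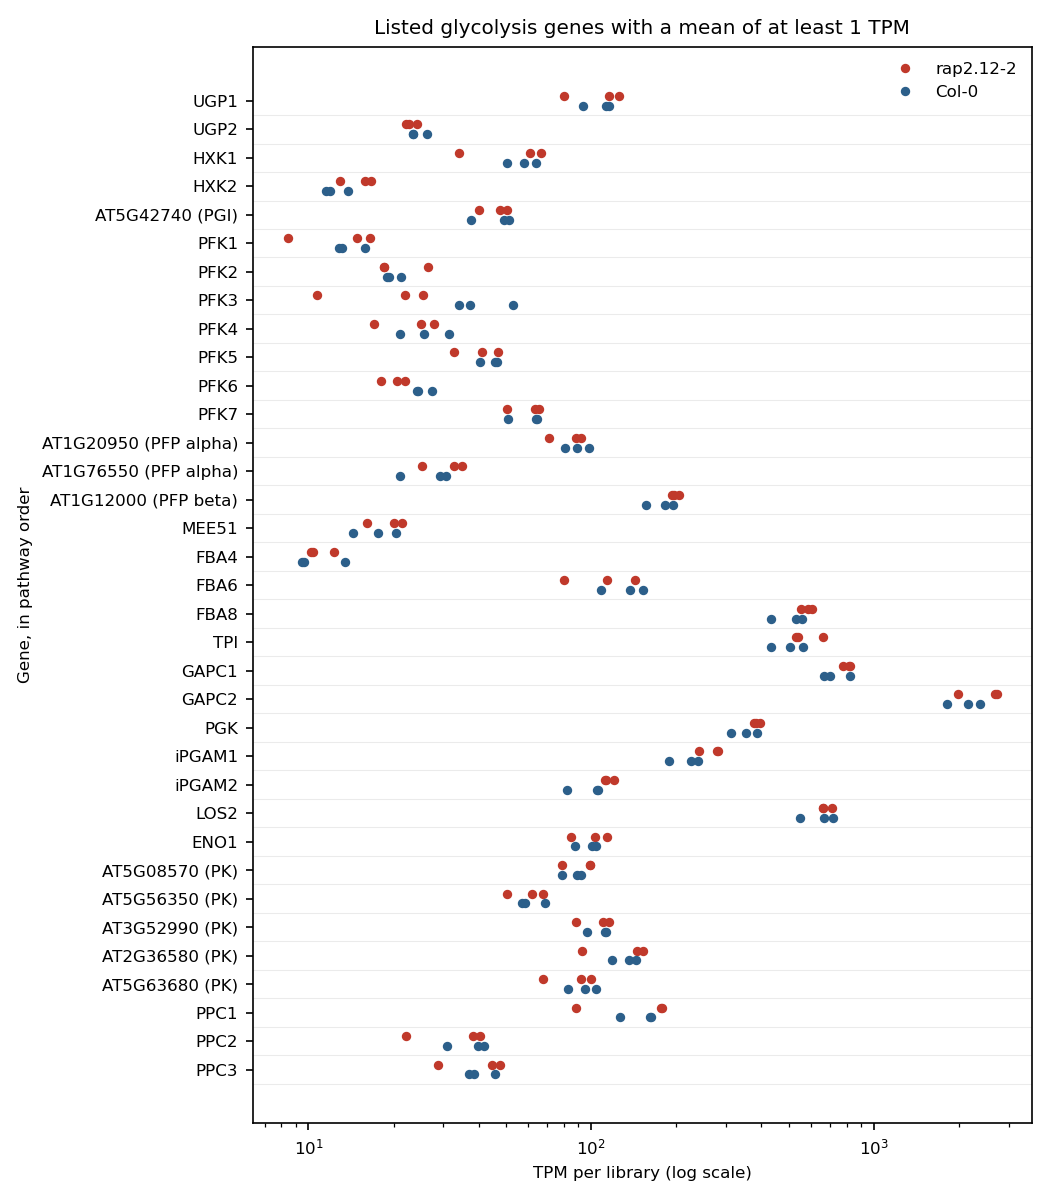
TPM per library (logarithmic horizontal axis) of the 35 listed genes that averaged 1 TPM or more, in pathway order, libraries labelled rap2.12-2 as red points above the blue points of Col-0. Levels run from 8.48 TPM for PFK1 to 2715 TPM for GAPC2, and the red and blue points are fully separate for PFK3, PFK6, iPGAM1 and iPGAM2.

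Single libraries thus moved many members together. The library labelled rap2.12-2 replicate 1 was the lowest of 6 for 17 of the 35 genes (48.6%, against 43.0% of all tested genes), mostly genes of the upper steps, pyruvate kinase and PPC. After rescaling to nuclear protein-coding genes it was the lowest for 21 (60.0%, against 49.7%), and Col-0 replicate 1 was the lowest for 2 (5.7%, against 9.3%). The library labelled rap2.12-2 replicate 3 was the highest for 10 genes (28.6%, against 10.3% of all tested genes). The median of the 35 genes, each centred on its mean over 6 libraries, was -0.18, 0.13 and 0.12 on the log2 scale in libraries labelled rap2.12-2 and -0.18, 0.05 and 0.09 in Col-0. PFK3, PFK6, iPGAM1 and iPGAM2 remained free of overlap when scaled by median of ratios, without organelle genes, or relative to nuclear protein-coding genes alone. Under these scalings 9.4%, 13.3% and 13.8% of all genes were lower without overlap, and 8.76%, 5.46% and 5.41% higher. AT1G12000 and FBA8 also became free of overlap, as higher, under median of ratios and relative to nuclear protein-coding genes, and AT5G08570 under median of ratios.

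**Figure D5:**
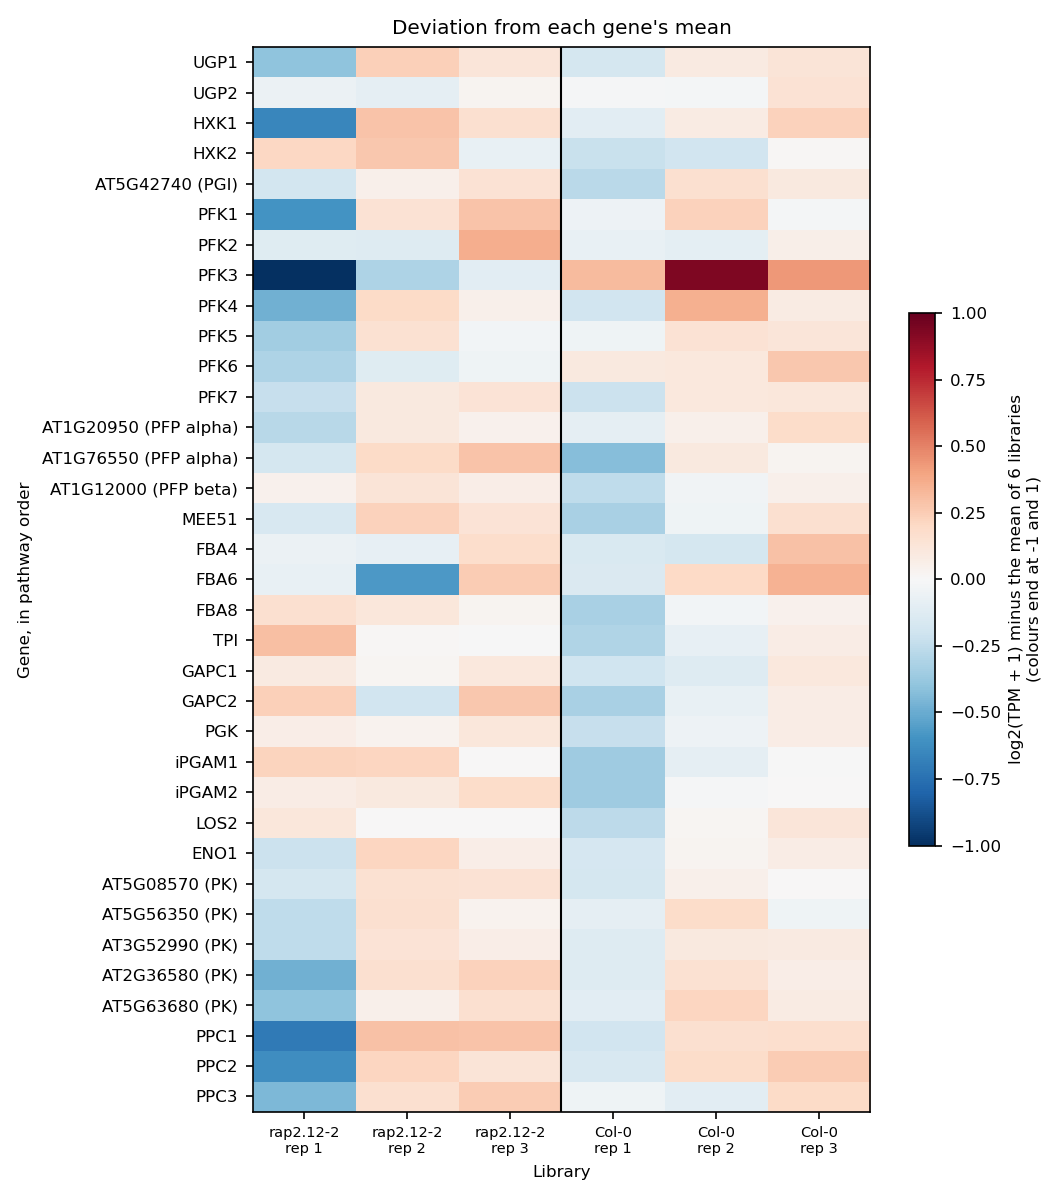
Deviation of log2(TPM + 1) from the mean of the 6 libraries for each of the 35 genes, with blue for lower and red for higher; colours end at -1 and 1. The columns of the library labelled rap2.12-2 replicate 1 (median -0.18) and of Col-0 replicate 1 (-0.18) are mostly blue, and the row of PFK3 is blue left of the line and red right of it.

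Markers of other cell types also differed between the libraries, but no tested marker passed at a limma adjusted p under 0.05 (XCP1 0.46, XCP2 0.39, WOX11 0.32). Over all tested genes the groups did not overlap for 12.7%. The 4 xylem markers summed to between 240.5 and 252.1 TPM in libraries labelled rap2.12-2 and between 149.0 and 186.0 TPM in Col-0, and none of the 4 was at 0. XCP1 and XCP2 made up most of these sums, at 127.7 to 138.7 and 86.3 to 96.2 TPM in libraries labelled rap2.12-2 and 80.6 to 101.6 and 53.4 to 67.4 TPM in Col-0. The groups overlapped for IRX3 (log2 fold change 0.37) and VND7 (-0.09). The 9 callus markers summed to 346.8 to 469.0 TPM in libraries labelled rap2.12-2 and 495.2 to 564.9 TPM in Col-0, of which WOX11 alone gave 73.4 to 130.4 TPM in libraries labelled rap2.12-2 and 170.6 to 195.8 TPM in Col-0. Without WOX11 the sums were 273.5, 366.1 and 325.3 TPM in libraries labelled rap2.12-2 and 302.2, 340.9 and 369.1 TPM in Col-0 and overlapped. The other sums overlapped, except the shoot meristem pair, at 2.27 to 3.5 TPM in libraries labelled rap2.12-2 and 1.49 to 2.01 TPM in Col-0. The epidermis pair summed to 7.67 to 20.7 TPM in libraries labelled rap2.12-2 and 18.2 to 27.2 TPM in Col-0, and the phloem pair to 10.8 to 14.4 TPM under the rap2.12-2 label and 9.91 to 11.8 TPM in Col-0. The 5 photosynthesis markers summed to 15.7 to 36.3 TPM under the rap2.12-2 label and 20.7 to 37.1 TPM in Col-0. The part of tissue composition in the PFK3 difference was not tested.

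Other genes of carbon metabolism were compared in the same fit, and none passed limma's test at an adjusted p under 0.05. Of 25 plastid and remaining glycolysis genes 16 were tested, with 9 positive and 7 negative log2 fold changes, a median of 0.01 and 0 at an unadjusted p under 0.05. The smallest p values there belonged to the plastid GAPDH gene GAPCP-2 (log2 fold change 0.28, limma adjusted p = 0.85) and the enolase family gene ENOC (-0.23, 0.85). Of 11 genes of sucrose cleavage and hexose-phosphate entry 4 were positive and 7 negative (median -0.15), with 1 lower at an unadjusted p under 0.05. This was SUS3, a sucrose synthase gene, at 7.03, 8.22 and 11.9 TPM in libraries labelled rap2.12-2 and 14.4, 25.3 and 13.8 TPM in Col-0 (log2 fold change -0.88, limma adjusted p = 0.48), with no overlap. The cytosolic invertase gene CINV2 came next (-0.22, limma adjusted p = 0.85), also lower without overlap. In this list 2 genes were lower and 1 higher without overlap, where over all tested genes 6.03% were lower and 6.62% higher.

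Of 8 genes of the gluconeogenic bypass and its regulators 5 were tested, with 2 positive and 3 negative values (median -0.01) and 0 at an unadjusted p under 0.05. The cytosolic fructose-bisphosphatase gene FBP had a log2 fold change of -0.31 (limma adjusted p = 0.85) and the pyruvate phosphate dikinase gene PPDK 0.22 (0.88). Of 6 fermentation genes 4 were tested, with 1 positive and 3 negative values (median -0.40) and 2 lower at an unadjusted p under 0.05. PDC2, a pyruvate decarboxylase gene, measured 26.9, 31.7 and 41.9 TPM in libraries labelled rap2.12-2 and 46.4, 54.7 and 53.2 TPM in Col-0 (log2 fold change -0.62, limma adjusted p = 0.47), with no overlap. The alcohol dehydrogenase gene ADH1 measured 569, 697 and 1012 TPM in libraries labelled rap2.12-2 and 961, 1205 and 1087 TPM in Col-0 (-0.55, limma adjusted p = 0.65), overlapping between 961 and 1012 TPM.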

How the data were processed

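The authors deposited 1 table of TPM for 31305 loci and 6 libraries. Per the labels' protocols, total RNA was extracted with TransZol Up and made into libraries with a TruSeq kit; strand handling is not given in the sources used here. Per the submitters' processing notes, the tools were RSEM 1.3.1 and STAR 2.7.10a and the genome TAIR10, with no roles given. TPM is relative to each library's total and keeps no depth, so no counting intervals were computed. Symbols, coordinates, start regions and coding sequences came from the TAIR10.1 reference (RefSeq), in which 31217 loci, all 38 listed genes included, were matched.

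Values were taken as log2(TPM + 1), which understates changes of low genes, and ratios are of mean TPM. The 18629 genes averaging 1 TPM or more were compared in 1 fit over 6 libraries by limma's moderated test with variance trend (version 3.58.1 in R 4.3.3), with Benjamini-Hochberg adjustment over all of them, 0.05 as threshold and 95% intervals. Every adjusted p is limma's. Where nothing states separate plants or plates, p-values measure the spread between these samples. Step sums, shares and ratios were not tested. The main gene of a step has the highest mean TPM over 6 libraries. On data simulated from the 18629 genes with 200 changed, the fit recovered 51% of 2-fold and 97% of 4-fold changes, with 12 of 160 calls false. The simulated noise was independent between genes, with each variance averaged with the median variance. Shifts of whole libraries, as seen here, were not simulated, so these rates need not hold for the real libraries.

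The start region of PFK3 is not reported here. Named genes were all listed loci, RAP2.12, the 2 genes of smallest p in each other list without a call, and markers needed to check tissue; overlapping neighbours and the comparison of start regions were chosen after values were seen. The members and lists were chosen with earlier results of these data known, and earlier results already showed PFK3, PDC2 and ADH1, which are therefore no independent support. Alternatives were pseudocounts of 0.1 and 0.5, a minimum mean of 5 TPM or none, quantile and median-of-ratios scaling, organelle genes removed, rescaling to nuclear protein-coding genes, no variance trend, a block for the replicate number, leaving out each library and, added after the data were seen, both replicates 1 left out.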

Additional observations from a re-analysis of the deposited data

How the results depend on the processing

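No listed gene passed at a limma adjusted p under 0.05 in any of the 17 alternatives; the smallest adjusted p of any of them was 0.20. PFK3 lay between -1.35 and -0.76 (log2) with adjusted p 0.20 to 0.88, and its unadjusted p, 0.0015 to 0.019, was under 0.05 in all 17. PFK6 lay between -0.40 and -0.24 and was under 0.05 unadjusted in 3. Of the 35 tested genes 21 changed sign in at least 1 alternative. The median of the listed genes ran from -0.09 to 0.14 on leaving out 1 library and from -0.08 to 0.06 otherwise. Of 154 alternative values of step sums 1 moved beyond the replicate SD, triose-phosphate isomerase without both replicates 1 (log2 ratio 0.00). Over all genes, limma called 8 higher and 5 lower. No filter on low values gave 3 and 3, median-of-ratios scaling 3 higher, no variance trend 2 and 3, leaving out 1 library 2 to 23 higher and 2 to 9 lower, and leaving out both replicates 1 gave 0 and 0. With the replicate block the counts were 2 higher and 2 lower. In that fit PFK3 had a limma adjusted p of 0.24 and RAP2.12 of 0.062. Deviations of same-numbered libraries correlated at 0.197, 0.349 and -0.114, values that do not decide whether the numbers pair the samples. The cause of these moves was not tested. Depth is unknown, so its limits cannot be stated.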

Other observations

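The whole hypoxia-responsive promoter element lay in the start regions of 18 genes, PFK6 among them, a search made after the PFK6 values were seen. Of these 15 were tested. Their log2 fold changes were negative in 9 and had a median of -0.04, against -0.02 over all genes, and 0 had an unadjusted p under 0.05 in limma. The groups did not overlap in 3 of them, all lower: PFK6, COG0212 (1.54 TPM in libraries labelled rap2.12-2, 2.61 TPM in Col-0) and AT1G76740 (5.33 TPM under the rap2.12-2 label, 7.51 TPM in Col-0). Over all tested genes 6.03% were lower and 6.62% higher without overlap. PFK6 prompted the search, and COG0212 and AT1G76740 are neighbours on opposite strands whose start regions overlap. The gluconeogenic gene PCK1, for phosphoenolpyruvate carboxykinase, measured 1147, 1512 and 1562 TPM in libraries labelled rap2.12-2 and 1194, 1487 and 1436 TPM in Col-0 (log2 fold change 0.03), above every listed glycolysis gene except GAPC2. The ratio of ADH1 to summed PDC1 and PDC2 was 2.71, 2.52 and 2.89 in libraries labelled rap2.12-2 and 3.20, 3.36 and 3.04 in Col-0, without overlap; it was looked at after the values were seen and not tested.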
